A study of Rattus norvegicus with 10 samples.

Results

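The genes described here encode the motors that carry cargo along microtubules: the kinesins with their light chains, cytoplasmic dynein, and its activator dynactin. They were chosen by symbol, as Kif, Klc, Dync1, Dync2, Dynll, Dynlr, Dynlt or Dctn followed by its number, with an expected count of at least 10 in at least 5 of the 10 libraries. Of 17168 genes in the table, 51 symbols matched and 42 met the floor, 24 of them kinesins or kinesin light chains and 18 of them dynein or dynactin subunits. All 42 were among the 11682 genes tested, and 38 had a count of at least 10 in all 10 libraries.

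RNA was sequenced from the left hippocampus of 10 female TgF-344AD rats, 5 fed chow that held ibudilast and 5 left untreated on plain rodent chow. Ibudilast was given from 5 months of age for 6 months, and every rat was 11 months old at dissection. Both groups carry the Tg-AD genotype, were anaesthetized with ketamine and xylazine and were perfused with buffered saline. TgF-344AD rats carry mutant human genes for the amyloid precursor protein and presenilin under a mouse prion promoter, so transgene expression is set by that promoter, and no animals without the transgenes were analysed here. Ibudilast inhibits several cyclic nucleotide phosphodiesterases. The design sets ibudilast against no treatment in transgenic females.

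Most axonal proteins are made in the cell body, so vesicles, mitochondria and cytoskeletal parts are moved out along microtubules. Most kinesins walk toward the plus ends, which point away from the cell body in axons, and cytoplasmic dynein walks back toward the minus ends. A motor's heavy chains hold the ATPase, its light and intermediate chains bind cargo or adaptors, and dynactin links dynein to cargo and lengthens its runs.

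Levels are CPM (reads of a gene relative to the library total), scaled by trimmed mean of M-values (TMM). They were computed here from the rounded counts and are not the deposited CPM. They are not divided by transcript length, so they are compared between groups and not between genes. Summed estimated counts per library were 7553804 to 10121571 with ibudilast and 6960066 to 8204390 without. Markers of hippocampal neurons were present in every library. Their summed level was 385 to 919 CPM with ibudilast and 677 to 1588 CPM without, and 5 of 8 were lower with ibudilast. Neocortical neuron markers summed to 479 to 851 CPM with ibudilast and 236 to 364 CPM without, with 5 of 7 higher and no overlap between the groups. Microglia markers summed to 255 to 469 CPM with ibudilast and 523 to 809 CPM without, with 7 of 8 lower. Astrocyte markers summed to 1991 to 3181 CPM with ibudilast and 3385 to 5198 CPM without, also with no overlap, and 3 of 7 were lower, namely Gfap, Gja1 and Aqp4. Cerebellar markers summed to 4085 CPM in ibudilast 3, against a median of 64.2 CPM over the ibudilast libraries and 41.6 to 95.4 CPM in the untreated ones. Choroid plexus markers reached 2576 CPM in untreated 1, and meningeal markers reached 1149 CPM in the ibudilast group, against at most 198 CPM in the untreated group. Pan-neuronal markers summed to 6620 to 9281 CPM with ibudilast and 6329 to 9175 CPM without, with 1 of 8 higher and 1 lower. Oligodendrocyte markers summed to 5558 to 11505 CPM with ibudilast and 6073 to 18450 CPM without, and none of 8 passed. In bulk tissue, fewer cells of a type and less RNA per cell cannot be told apart.

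With ibudilast, the kinesins Kif1b, Kif5a and Kif5c and the dynein heavy chain Dync1h1 were higher, while the dynein light chains Dynll1, Dynlt3 and Dynlrb1 and the dynactin subunits Dctn5 and Dctn6 were lower. Of the 42 motor genes, 13 were higher, 7 were lower and 22 did not pass (edgeR quasi-likelihood fit, with p adjusted over all genes tested and a threshold of 0.05). Over all 11682 genes tested, 38.5% passed in either direction, 20.0% higher and 18.5% lower, so the 47.6% of motor genes that passed stood beside a high background. The direction was split by motor, and over all genes the shares in each direction also moved with gene span, as given below. Among the 24 kinesins and light chains 9 were higher, which is 37.5%, and 1 was lower, which is 4.17%. Among the 18 dynein and dynactin genes 4 were higher, which is 22.2%, and 6 were lower, which is 33.3%. The median log2 fold change, ibudilast over untreated, was 0.51 for the kinesins, -0.16 for dynein and dynactin and 0.01 for all genes tested. The groups did not overlap at 12 motor genes, among a background of 24.3% of all genes tested. Of these 12, 3 were kinesins, all higher, and 9 were dynein or dynactin genes, 2 of them higher and 7 lower. No test of the list as a whole was made.

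**Figure D1:**
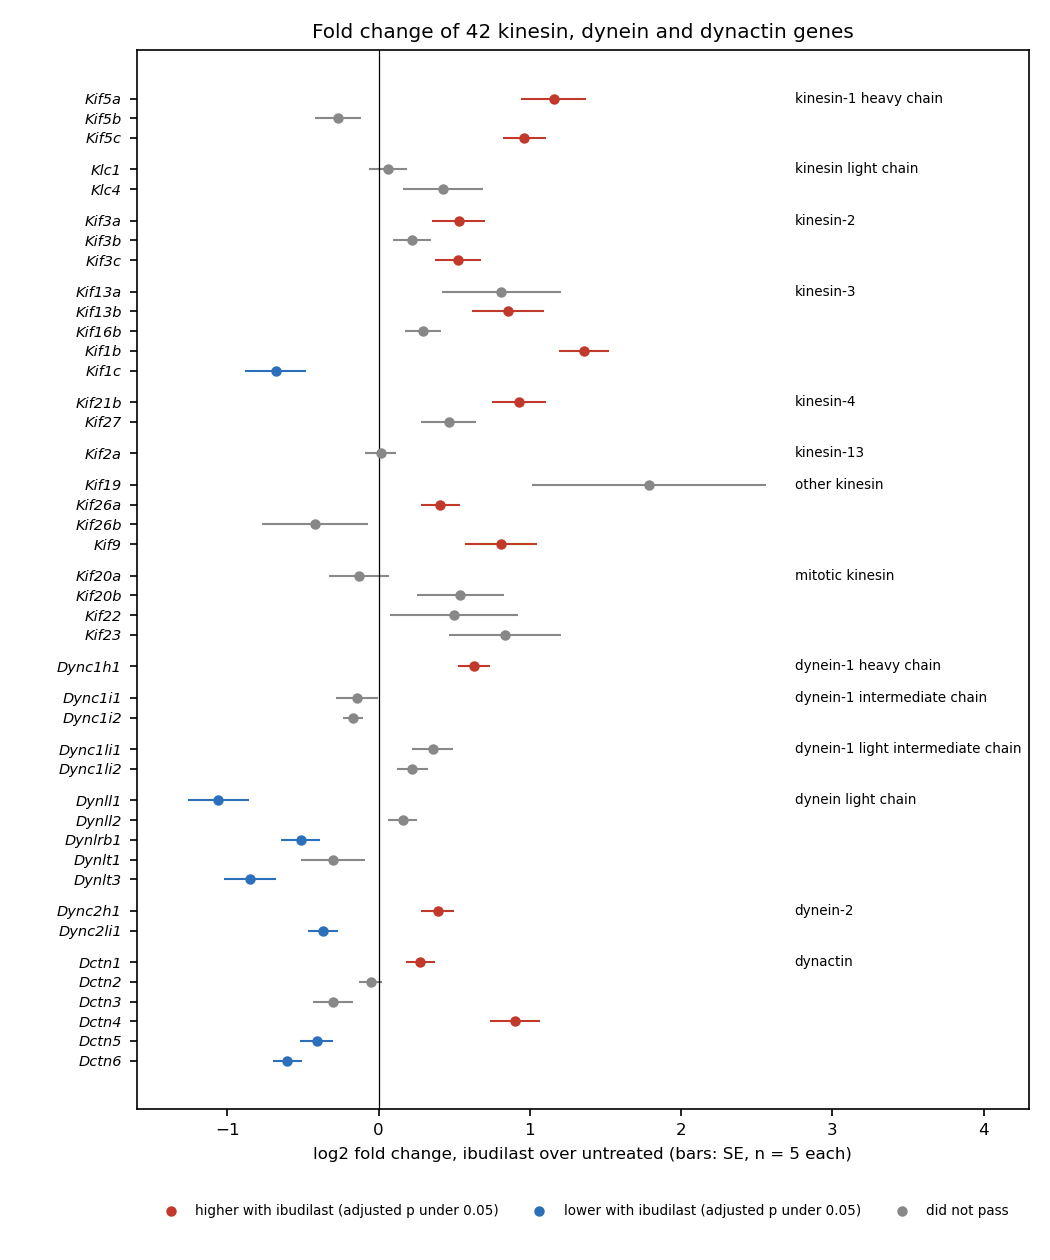
Log2 fold change, ibudilast over untreated, of each of the 42 motor genes on the horizontal axis, grouped by role down the page (bars: SE, n = 5 each); colour marks the direction of the genes that passed. Red points gather among the kinesins, and the blue points are 6 dynein or dynactin genes and Kif1c.

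Kinesin-1 is the classic anterograde motor, a pair of heavy chains with a pair of light chains. Kif5a and Kif5c, its neuron-enriched heavy chains, were higher with ibudilast, while Kif5b, the heavy chain found in most cell types, and both light chains did not pass. Kif5a had 1255, 2140.1, 1206, 2174 and 1548 CPM in ibudilast 1 to 5, against 612, 985, 800.3, 560.3 and 775 CPM in untreated 1 to 5. Every ibudilast library lay above every untreated one, with ibudilast 2 and 4 the highest. Its mean was 1665 ± 468 CPM with ibudilast and 747 ± 168 CPM without (SD, n = 5 each), for a log2 fold change of 1.16 (SE 0.21, adjusted p = 0.00264). Kif5c had 513, 714, 512, 775 and 592 CPM in ibudilast 1 to 5, against 261, 321, 332, 305 and 373 CPM in untreated 1 to 5, again with no overlap and with ibudilast 2 and 4 on top. The log2 fold change of Kif5c was 0.96 (SE 0.14, adjusted p = 0.00121). Kif5b had 119, 179.6, 192, 166 and 154 CPM in ibudilast 1 to 5, against 246, 176, 182, 215 and 157 CPM in untreated 1 to 5. The groups overlapped, and the log2 fold change of -0.27 (SE 0.15) had an adjusted p = 0.178.

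Klc1, the main brain light chain, which binds cargo adaptors, had 1048, 1129, 799, 1193 and 995 CPM in ibudilast 1 to 5, against 1096, 878, 1078, 887 and 1005 CPM in untreated 1 to 5. The groups overlapped over most of their range. Its mean was 1033 ± 151 CPM with ibudilast and 989 ± 103 CPM without (SD, n = 5 each), with a log2 fold change of 0.06 (SE 0.13, adjusted p = 0.715). Klc4, another light chain, had 96.6 CPM in ibudilast 3 and 36.0 to 42.8 CPM in the other ibudilast libraries, against 30.7 to 46.6 CPM in the untreated libraries. Its log2 fold change was 0.42 (SE 0.27, adjusted p = 0.222), and 0.07 without ibudilast 3. The part of the cerebellar markers of ibudilast 3 in these values was not tested. Klc3 had a count of at least 10 in 1 library and was below the floor.

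**Figure D2:**
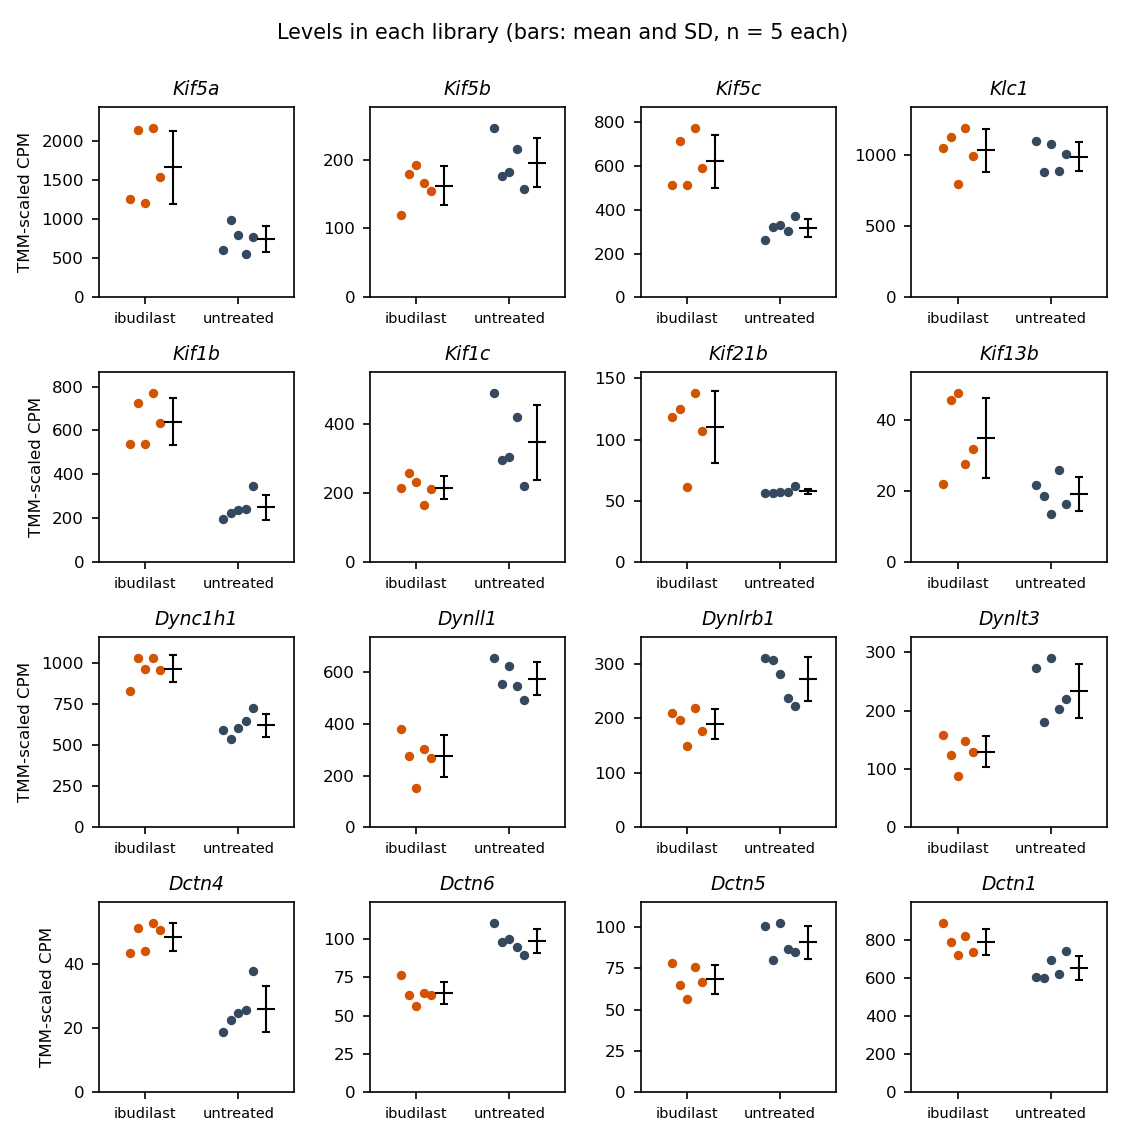
TMM-scaled CPM of 16 motor genes, 1 point per library, with ibudilast left of untreated in each panel and the mean and SD (n = 5 each) beside the points; every vertical axis starts at 0. Kif5a, Kif5c, Kif1b, Dync1h1 and Dctn4 lie higher with ibudilast, and Dynll1, Dynlrb1, Dynlt3, Dctn5 and Dctn6 lie lower, all 10 with no overlap between the groups.

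Promoter sequences are given for 5 of these genes because Kif5c, Kif1b and Dync1h1 were higher, Klc1 did not pass and Dynll1, described below, was lower. Each run is the 250 bases before the annotated start, from RefSeq on the rat GRCr8 build, read 5′ to 3′ on the gene's strand. Capitals mark the cAMP response element TGACGTCA or its shorter core TGACG on either strand, the element that the cAMP-responsive factor CREB is known to bind.
Kif5c, chr3:54441057-54441306, plus strand: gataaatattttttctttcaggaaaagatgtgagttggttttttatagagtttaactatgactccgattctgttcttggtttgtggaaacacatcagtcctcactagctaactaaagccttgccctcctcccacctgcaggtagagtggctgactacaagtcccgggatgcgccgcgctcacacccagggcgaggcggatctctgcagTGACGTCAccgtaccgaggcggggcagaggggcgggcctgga
Klc1, chr6:136644350-136644599, plus strand: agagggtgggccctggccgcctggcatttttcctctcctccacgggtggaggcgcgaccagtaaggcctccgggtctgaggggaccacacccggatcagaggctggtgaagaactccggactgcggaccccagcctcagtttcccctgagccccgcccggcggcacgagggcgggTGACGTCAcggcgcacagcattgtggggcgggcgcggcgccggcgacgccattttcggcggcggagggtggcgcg
Kif1b, chr5:165025849-165026098, minus strand: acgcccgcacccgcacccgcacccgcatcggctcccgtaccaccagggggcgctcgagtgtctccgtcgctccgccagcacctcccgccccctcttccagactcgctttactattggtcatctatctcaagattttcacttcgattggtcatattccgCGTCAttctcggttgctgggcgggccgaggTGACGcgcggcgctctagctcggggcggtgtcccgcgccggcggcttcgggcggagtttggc
Dync1h1, chr6:135436228-135436477, plus strand: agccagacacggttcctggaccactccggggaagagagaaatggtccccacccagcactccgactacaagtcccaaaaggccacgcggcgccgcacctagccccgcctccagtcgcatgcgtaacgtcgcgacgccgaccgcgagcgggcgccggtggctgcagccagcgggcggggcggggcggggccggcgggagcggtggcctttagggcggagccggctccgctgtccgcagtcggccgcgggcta
Dynll1, chr12:46972827-46973076, plus strand: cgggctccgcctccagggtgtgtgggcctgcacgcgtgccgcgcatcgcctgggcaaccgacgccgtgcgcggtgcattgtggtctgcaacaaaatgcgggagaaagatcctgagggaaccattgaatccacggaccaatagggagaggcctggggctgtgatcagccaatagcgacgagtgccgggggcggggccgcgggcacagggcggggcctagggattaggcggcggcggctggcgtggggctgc
Kif5c and Klc1 each hold 1 full element, which contains the core on each strand, Kif1b holds 2 separate cores, and no match is in the windows of Dync1h1 and Dynll1. Among 27457 RefSeq rat promoters of this length, 1.7% hold the full element and 19% hold the core. Of 32 motor genes with an entry, 3 hold the full element, namely Dctn3, Kif5c and Klc1, and 8 hold the core. Kif5a had no entry and was not searched, and nor were Kif13b, Kif21b, Dynlt3, Dynlrb1 and Dctn6, among others. Among the 8 genes called higher that have an entry 3 hold the core, and among the 4 called lower 1 does. The E-box CACGTG, bound by basic helix-loop-helix factors, is in 5.79% of promoters and, of the motor genes with an entry, in that of Dctn4. These matches describe letters in a window, and binding was not measured.

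Kinesin-3 motors carry synaptic vesicle precursors, mitochondria and endosomes. Kif1b, whose isoforms move mitochondria and synaptic vesicle precursors, had the largest rise among the motor genes that passed. It had 536, 724, 537, 772 and 635 CPM in ibudilast 1 to 5, against 195, 226, 237, 244 and 347 CPM in untreated 1 to 5. No untreated library reached the lowest ibudilast library. Kif1b averaged 641 ± 107 CPM with ibudilast and 249.8 ± 57.7 CPM without (SD, n = 5 each), for a log2 fold change of 1.36 (SE 0.17, adjusted p = 0.000767). Kif1c, a paralog that is widely expressed and moves dense core vesicles, was the single kinesin that fell. It had 217, 257, 232, 167 and 211 CPM in ibudilast 1 to 5, against 491, 296, 305, 422 and 221 CPM in untreated 1 to 5. The groups overlapped through untreated 5, and the log2 fold change was -0.68 (SE 0.20, adjusted p = 0.0219). The call for Kif1c was lost without ibudilast 4, untreated 1 or untreated 4, at log2 fold changes of -0.60, -0.52 and -0.60, so no kinesin was called lower in those fits. All 8 oligodendrocyte markers, none of which passed, were highest in ibudilast 2 in their group, and in untreated 1 and untreated 4 in the other. Kif1c was highest in the same libraries of each group. The part of oligodendrocyte markers in the Kif1c values was not tested.

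Kif13b, which moves vesicles that hold phosphoinositides and membrane proteins, had 21.9, 45.6, 47.5, 27.7 and 31.7 CPM in ibudilast 1 to 5, against 21.8, 18.6, 13.5, 25.9 and 16.4 CPM in untreated 1 to 5. Ibudilast 1 lay within the untreated range and the other ibudilast libraries lay above it, with a log2 fold change of 0.86 (SE 0.24, adjusted p = 0.0159). Kif13a, its paralog on recycling endosomes, had 175 CPM in ibudilast 3 and 32.3 to 65.1 CPM in the other ibudilast libraries, against 37.5 to 46.8 CPM in the untreated ones. Its log2 fold change of 0.81 (SE 0.40, adjusted p = 0.123) was 0.20 without ibudilast 3. Kif16b, an early endosome motor, averaged 16.1 ± 1.15 CPM with ibudilast and 13.2 ± 1.84 CPM without (SD, n = 5 each) and did not pass (adjusted p = 0.0704). Without untreated 5 it passed at a log2 fold change of 0.41 (adjusted p = 0.0142).

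Kinesin-2 serves cilia and axonal vesicles through Kif3a paired with Kif3b or with the neuronal Kif3c. Kif3a averaged 101 ± 21.1 CPM with ibudilast and 70.2 ± 14.6 CPM without (SD, n = 5 each), for a log2 fold change of 0.53 (SE 0.17, adjusted p = 0.0332). Kif3c averaged 282 ± 47.9 CPM with ibudilast and 196 ± 35.5 CPM without, also a log2 fold change of 0.53 (SE 0.15, adjusted p = 0.0186). Both rose with groups that overlapped. Kif3b, at 96.6 ± 14.6 CPM with ibudilast and 83.0 ± 10.9 CPM without, did not pass (log2 fold change 0.22, SE 0.13, adjusted p = 0.189). The Kif3a call was lost in 7 of the 10 fits that each left out 1 library, all but those without ibudilast 1, ibudilast 3 and untreated 5, at log2 fold changes from 0.43 without ibudilast 4 to 0.56 without untreated 3. Without ibudilast 3, Kif3b passed at 0.31 (adjusted p = 0.0325).

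Kif21b, a kinesin-4 motor of dendrites and axons that also slows microtubule growth, had 119, 125, 61.4, 138 and 107 CPM in ibudilast 1 to 5, against 56.6, 56.2, 57.1, 57.0 and 61.9 CPM in untreated 1 to 5. The untreated libraries lay close together, and ibudilast 3 was the single ibudilast library within their range. Kif21b rose by a log2 fold change of 0.93 (SE 0.18, adjusted p = 0.003), which was 1.09 without ibudilast 3. Kif27, a ciliary kinesin-4, had a log2 fold change of 0.46 (SE 0.18) and did not pass (adjusted p = 0.0647), though it did without ibudilast 3, at 0.57 (adjusted p = 0.0207). Kif2a, a kinesin-13 that removes tubulin from microtubule ends and does not walk, had 109.7 ± 10.2 CPM with ibudilast and 109 ± 13 CPM without (SD, n = 5 each), with a log2 fold change of 0.01 (SE 0.10, adjusted p = 0.929).

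The remaining kinesins were at low levels. Kif26a, a family member without ATPase activity, averaged 14.6 ± 1.65 CPM with ibudilast and 11.0 ± 1.39 CPM without (SD, n = 5 each), for a log2 fold change of 0.41 (adjusted p = 0.0283). Its paralog Kif26b had a log2 fold change of -0.42 (SE 0.35) and did not pass (adjusted p = 0.363). Kif9, a kinesin of motile cilia, averaged 4.39 ± 0.957 CPM with ibudilast and 2.51 ± 0.639 CPM without, a log2 fold change of 0.81 (SE 0.24, adjusted p = 0.0209). Kif19, which sets the length of motile cilia, had 34.3 CPM in ibudilast 3 and 2.93 to 4.55 CPM in the other ibudilast libraries, against 1.09 to 5.37 CPM in the untreated libraries. Its log2 fold change of 1.79 (SE 0.77, adjusted p = 0.087) was 0.31 without ibudilast 3. Other markers of motile cilia, 5 genes, summed to 8.68 to 15 CPM with ibudilast and 8.48 to 39.0 CPM without. None of the 4 tested passed, and all 4 had negative log2 fold changes, with a median of -0.71, against the positive one of Kif9. The Kif26a call was lost without ibudilast 2, ibudilast 4, untreated 1, untreated 2 or untreated 4, at log2 fold changes of 0.34, 0.40, 0.41, 0.36 and 0.36. That of Kif9 was lost without ibudilast 4, untreated 2 or untreated 3, at 0.72, 0.73 and 0.73.

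None of the 4 mitotic kinesins that met the floor passed, namely Kif20a, Kif20b, Kif22 and Kif23, which act in the spindle and in cytokinesis. Of these Kif23 alone had an unadjusted p under 0.05, and it passed at log2 fold changes of 0.99 without ibudilast 1 and 0.98 without ibudilast 3. Kif20b, Kif22 and Kif23 had mean levels between 1.29 and 2.50 CPM in either group, and Kif20a had 9.02 ± 2.80 CPM with ibudilast and 9.87 ± 0.912 CPM without (SD, n = 5 each). Kif22 and Kif20b lay just inside the floor, each with a count of at least 10 in 7 libraries, and Kif23 reached it in 8. The mitotic kinesins Kif11, Kif15, Kif18a, Kif18b and Kif2c lay outside it, with Kif15 at counts of 2 to 13 and Kif18b at 0 to 5. Markers of dividing cells summed to 11.0 to 13.5 CPM with ibudilast and 11.6 to 21.3 CPM without, none of 4 passing. Also outside the floor were Kif12, Kif2b, Klc3 and Dynlrb2. At these counts a change could be missed, so a gene that did not pass is not shown to be equal in the groups.

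Cytoplasmic dynein-1 is the main retrograde motor. Its heavy chain Dync1h1, which holds the ATPase ring, had 828, 1029, 963, 1028 and 958 CPM in ibudilast 1 to 5, against 593, 536, 606, 643 and 725 CPM in untreated 1 to 5. The lowest ibudilast library lay above the highest untreated one. Dync1h1 averaged 961 ± 81.8 CPM with ibudilast and 621 ± 69.9 CPM without (SD, n = 5 each), for a log2 fold change of 0.63 (SE 0.11, adjusted p = 0.00167).

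The intermediate chains, which join the heavy chains to dynactin, did not pass. The neuronal Dync1i1 had 189 ± 20.7 CPM with ibudilast and 209 ± 37.8 CPM without (adjusted p = 0.431). The broadly expressed Dync1i2 had 134, 143, 146, 152 and 141 CPM in ibudilast 1 to 5, against 167, 159, 161, 152 and 165 CPM in untreated 1 to 5. Every untreated library of Dync1i2 lay above every ibudilast one, if only just for untreated 4, yet the log2 fold change of -0.17 (SE 0.07) did not pass (adjusted p = 0.068), while DESeq2 called it lower (adjusted p = 0.0146). The light intermediate chains, which bind activating adaptors, had positive values that did not pass, with log2 fold changes of 0.36 for Dync1li1 (adjusted p = 0.053) and 0.22 for Dync1li2 (adjusted p = 0.103). Dync1li1 passed without ibudilast 3, at a log2 fold change of 0.41 (adjusted p = 0.0294), and without untreated 5, at 0.49 (adjusted p = 0.00997). Dync1li1 passed in 8 of the 24 alternatives. The others were DESeq2 (adjusted p = 0.0387), limma-voom (adjusted p = 0.0449) and limma-trend with either pseudocount (adjusted p = 0.0492 and 0.0491). Also among them were the filter at 10 CPM (adjusted p = 0.0367) and the library title's number range as a covariate (adjusted p = 0.043).

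Of the 5 dynein light chains, 3 fell, none rose, and the median log2 fold change was -0.52. Dynll1, a small hub protein that dynein shares with many other complexes, had 379, 277, 151, 304 and 270.2 CPM in ibudilast 1 to 5, against 657, 556, 625, 547 and 495 CPM in untreated 1 to 5. No ibudilast library reached the lowest untreated one, and ibudilast 3 was the lowest. Its mean was 276 ± 82.4 CPM with ibudilast and 576 ± 64.6 CPM without (SD, n = 5 each), for a log2 fold change of -1.06 (SE 0.20, adjusted p = 0.0029), and -0.90 without ibudilast 3. Its paralog Dynll2 had 743 ± 73.8 CPM with ibudilast and 665 ± 46.9 CPM without, a log2 fold change of 0.16 (SE 0.10) that did not pass (adjusted p = 0.207). The difference between these paralogs was not tested.

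Dynlt3, a light chain of the Tctex family, had 158, 124, 88.7, 148 and 129 CPM in ibudilast 1 to 5, against 273, 181, 290.4, 202 and 220.1 CPM in untreated 1 to 5, with no overlap. It fell by 0.85 on the log2 scale (SE 0.17, adjusted p = 0.00397). Dynlrb1, a roadblock light chain, had 209, 197, 149.6, 218 and 177 CPM in ibudilast 1 to 5, against 311, 307, 281, 237 and 222 CPM in untreated 1 to 5. These groups did not overlap either, though untreated 5 lay close to ibudilast 4, and the log2 fold change was -0.52 (SE 0.13, adjusted p = 0.0109). Dynlt1, at 6.92 ± 2.09 CPM with ibudilast and 8.55 ± 1.39 CPM without, did not pass (adjusted p = 0.275). In dynein-2, the motor of retrograde transport in cilia, the heavy chain and the light intermediate chain moved apart. Dync2h1 averaged 42.6 ± 4.86 CPM with ibudilast and 32.5 ± 3.39 CPM without (log2 fold change 0.39, SE 0.11, adjusted p = 0.0156). Dync2li1 averaged 17.9 ± 1.82 CPM with ibudilast and 23.0 ± 1.58 CPM without, with no overlap (log2 fold change -0.37, SE 0.10, adjusted p = 0.0165).

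Dynactin is built on a short actin-like filament with a shoulder that reaches out to dynein and a pointed end capped by a small complex. Of its 6 subunits here, 2 rose and 2 fell. Dctn1, the long arm that grips microtubules and dynein, had 889, 788, 718, 819 and 738 CPM in ibudilast 1 to 5, against 606, 599, 693, 623 and 739 CPM in untreated 1 to 5. Untreated 5 lay within the ibudilast range, and the log2 fold change of 0.28 (SE 0.10) passed narrowly (adjusted p = 0.0451). The call was lost in 8 of the 10 fits that each left out 1 library, all but those without ibudilast 3 and untreated 5, at log2 fold changes from 0.23 without ibudilast 1 to 0.30 without ibudilast 5 or untreated 3. Dctn2 and Dctn3, parts of the shoulder, did not pass, with log2 fold changes of -0.05 (adjusted p = 0.594) and -0.30 (adjusted p = 0.0896).

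Dctn4, Dctn5 and Dctn6 belong to the pointed-end complex and went different ways. Dctn4 had 43.3, 51.0, 44.1, 52.8 and 50.4 CPM in ibudilast 1 to 5, against 18.7, 22.6, 24.7, 25.5 and 37.8 CPM in untreated 1 to 5, with no overlap. It rose by a log2 fold change of 0.90 (SE 0.16, adjusted p = 0.00253). Dctn5 had 78.3, 64.8, 56.8, 75.8 and 66.7 CPM in ibudilast 1 to 5, against 100.3, 79.9, 103, 86.7 and 84.7 CPM in untreated 1 to 5. Untreated 2 lay just above ibudilast 1, and Dctn5 fell by 0.41 on the log2 scale (SE 0.11, adjusted p = 0.0139). Dctn6 had 76.3, 63.1, 56.0, 64.9 and 63.3 CPM in ibudilast 1 to 5, against 110.3, 97.5, 99.7, 94.6 and 89.5 CPM in untreated 1 to 5. The gap between the groups was wider for Dctn6, which fell by 0.60 on the log2 scale (SE 0.09, adjusted p = 0.00134).

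**Figure D3:**
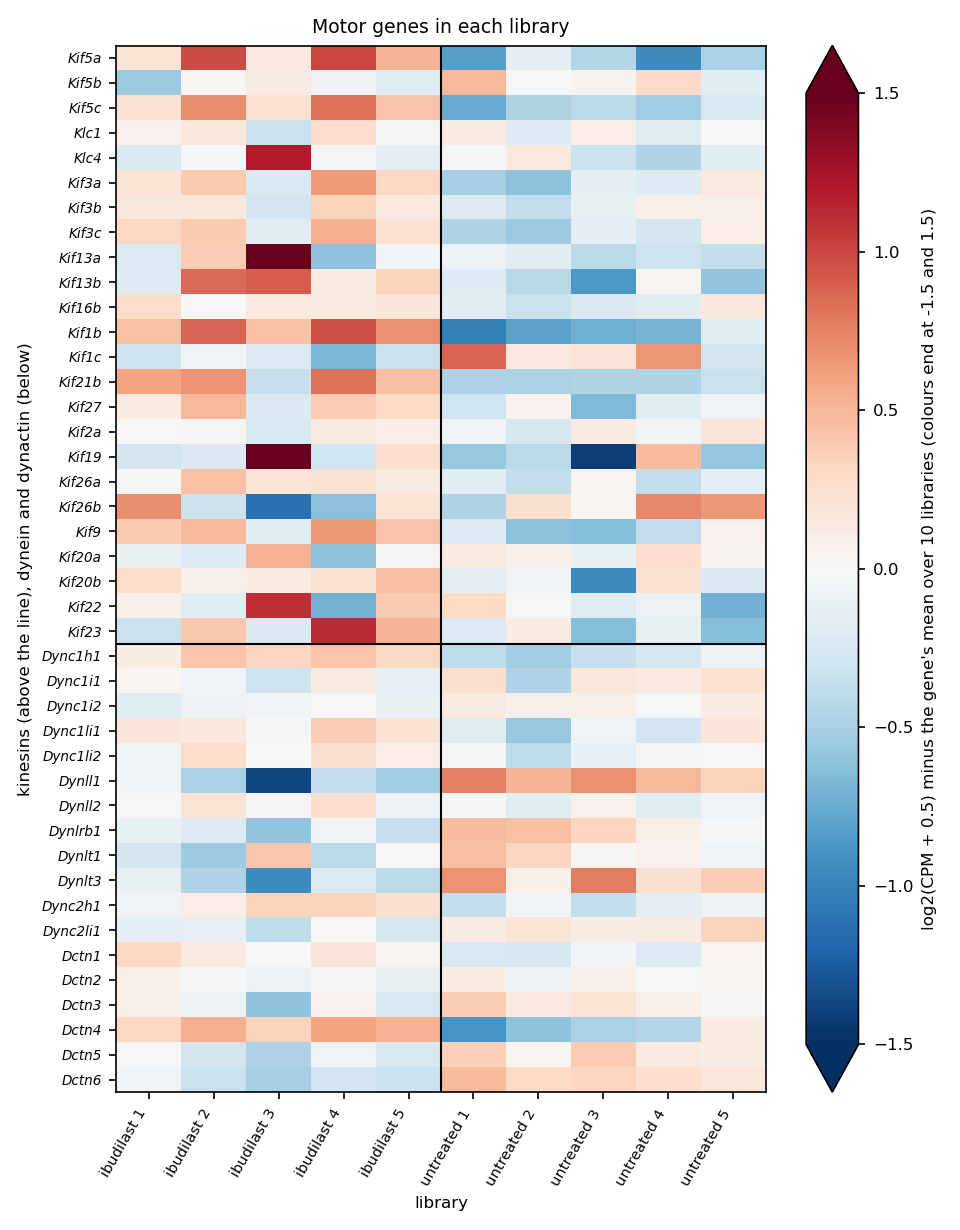
Each motor gene's log2(CPM + 0.5) minus its own mean over the 10 libraries, kinesins above the horizontal line and dynein and dynactin below it, ibudilast libraries left of the vertical line and untreated ones right of it; colours end at -1.5 and 1.5. Kif5a, Kif5c and Kif1b are red across the ibudilast columns, Dynll1, Dynlt3 and Dctn6 are blue there, and Kif13a, Kif19 and Klc4 are darkest in ibudilast 3.

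To set heavy against light chains and kinesin against dynein inside each library, 6 ratios of a pair of genes were formed on the log2 scale, in which library scaling cancels. Differences between the groups were tested by permuting the libraries exactly, two-sided, a test whose smallest p with 5 against 5 is 0.00794, and p was adjusted over the 6 ratios. Kif5a over Klc1 was 0.66 ± 0.26 with ibudilast and -0.43 ± 0.38 without (SD, n = 5 each), a difference of 1.08, which is 2.12-fold, with no overlap (exact p = 0.00794, adjusted p = 0.0119). Kif5c over Klc1 was -0.74 ± 0.17 with ibudilast and -1.64 ± 0.26 without, a difference of 0.90 or 1.86-fold, with the same exact p and adjusted p. Kif5b over Klc1 was -2.68 ± 0.39 with ibudilast and -2.35 ± 0.27 without, a difference of -0.32 that did not pass (exact p = 0.167). Without ibudilast 3 the ratio of Kif5b to Klc1 passed as lower, at a difference of -0.48 (adjusted exact p = 0.0381). The ratio to Klc1 was thus higher for both neuron-enriched heavy chains, and for Kif5b no such rise was seen. Ratios to Klc4, which stood high in ibudilast 3, were not tested. No ratio was fitted with a marker score as a covariate, so the part of the marker levels in the ratios was not tested.

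In dynein the heavy chain stood higher against Dynll1 and against Dynlrb1 in every ibudilast library than in any untreated one, and ratios to the other light chains were not formed. Dync1h1 over Dynll1 was 1.86 ± 0.55 with ibudilast and 0.11 ± 0.29 without (SD, n = 5 each), a difference of 1.75 or 3.36-fold (exact p = 0.00794, adjusted p = 0.0119). Dync1h1 over Dynlrb1 was 2.35 ± 0.26 with ibudilast and 1.2 ± 0.37 without, a difference of 1.15 or 2.22-fold (exact p = 0.00794, adjusted p = 0.0119). Between the anterograde and the retrograde heavy chain, Kif5a over Dync1h1 was 0.75 ± 0.32 with ibudilast and 0.24 ± 0.41 without, a difference of 0.51 or 1.42-fold that did not pass (exact p = 0.0635, adjusted p = 0.0762), though it passed without ibudilast 3, at 0.61 (adjusted exact p = 0.0476), and without untreated 2, at 0.66 (adjusted exact p = 0.0286). The genes of these ratios were chosen with earlier results of these libraries known, so their direction is not independent evidence. Without ibudilast 3, ibudilast 5 and untreated 1, the libraries with the most cerebellar, meningeal or choroid plexus markers, the 4 ratios that passed still did not overlap between groups, at differences of 1.01 for Kif5a and 0.76 for Kif5c over Klc1, and of 1.42 and 0.94 for Dync1h1 over Dynll1 and Dynlrb1. With 35 arrangements of those 7 libraries each had an adjusted exact p = 0.0857, and none passed.

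**Figure D4:**
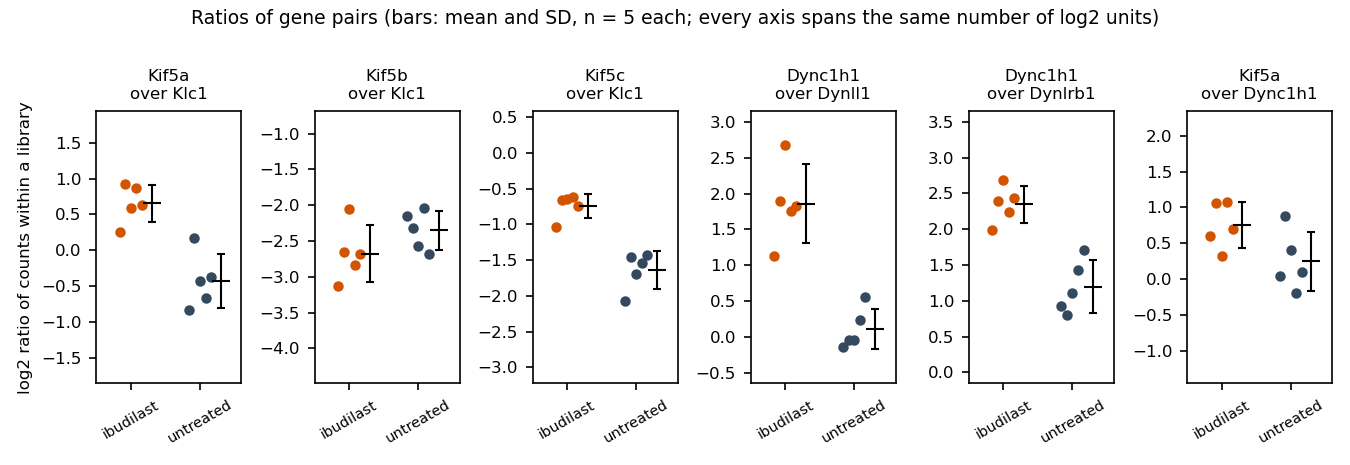
Log2 ratio of counts of a pair of genes within a library for 6 pairs, 1 point per library, ibudilast left of untreated, with the mean and SD (n = 5 each). The groups do not overlap for Kif5a and Kif5c over Klc1 and for Dync1h1 over Dynll1 and Dynlrb1, and they overlap for Kif5b over Klc1 and Kif5a over Dync1h1.

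Cargo adaptors and regulators of these motors were listed separately, 38 by symbol, of which 36 were tested. Here 8 were higher, which is 22.2%, 7 were lower, which is 19.4%, and the median log2 fold change was -0.01, shares close to those of all genes tested. Among those higher, Myo5a, the actin motor that takes over vesicles and RNA in spines, averaged 321 ± 99.8 CPM with ibudilast and 90.9 ± 27.7 CPM without (SD, n = 5 each; log2 fold change 1.82, SE 0.25, adjusted p = 0.00098). Mapk8ip3, or JIP3, a scaffold that binds kinesin-1 and dynactin, averaged 600.0 ± 80.4 CPM with ibudilast and 304 ± 63.6 CPM without (log2 fold change 0.98, adjusted p = 0.00125). Madd, which links Kif1b to vesicles that bear Rab3, had a log2 fold change of 0.81 (adjusted p = 0.00137), and Trak1, the mitochondrial adaptor of kinesin-1 and dynein, had one of 0.43 (adjusted p = 0.00496).

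Lower were Capza2 and Capzb, an alpha and the beta subunit of the capping protein found on actin and at dynactin's barbed end, with log2 fold changes of -0.59 (adjusted p = 0.00452) and -0.48 (adjusted p = 0.00563). Capza1, another alpha subunit, named after its values were seen, was higher at 0.30 (adjusted p = 0.0238). Fez2, of a family of kinesin-1 adaptors, had a log2 fold change of -0.38 (adjusted p = 0.00916), and Arl8b, the small GTPase that recruits kinesins to lysosomes, had one of -0.32 (adjusted p = 0.0235). Pafah1b1, or LIS1, which activates dynein, was named after its values were seen. It averaged 689.6 ± 99.8 CPM with ibudilast and 448 ± 89.3 CPM without (SD, n = 5 each; log2 fold change 0.62, SE 0.15, adjusted p = 0.00856).

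The fold change of all genes moved with gene length in the genome. With all genes cut into 10 equal bins of span, from the shortest bin to the longest, the median log2 fold change ran from -0.31 at a median of 2.89 kb to 0.38 at a median of 235 kb. The share called higher ran from 5.66% in the shortest bin to 38.2% in the longest, and the share called lower from 40.2% to 8.36%. The motor genes called higher had a median span of 50.0 kb, those called lower 26.5 kb and those not called 35.6 kb, against 24.4 kb for all genes tested. By family, the median span was 42.7 kb for the kinesins and 27.6 kb for dynein and dynactin. In the bin with a median of 39.7 kb, 25.3% of genes were higher and 12.1% lower. In the bin at 28.4 kb these shares were 19.0% and 14.1%. Shares for genes matched in span to each family were not computed. Across the 42 motor genes, log2 span and log2 fold change had a Pearson correlation of 0.30 and a Spearman correlation of 0.36, and across 11473 genes tested the values were 0.30 and 0.34. Genes are not independent of each other, and these correlations are given as descriptions.

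With the trend over span removed, edgeR called 3959 of 11682 genes, 1835 higher and 2124 lower. Of the motor genes, 4 kinesins and 2 dynein or dynactin genes were higher, and 1 kinesin and 8 dynein or dynactin genes were lower. The kinesin called lower was again Kif1c, at a log2 fold change of -0.75 (adjusted p = 0.0163). The higher ones were Kif1b at a log2 fold change of 1.07, Kif5a at 1.05, Kif21b at 0.77, Kif5c at 0.65, Dctn4 at 0.84 and Dync1h1 at 0.43. Dync2h1, one of the long genes, had a log2 fold change of 0.03 there (adjusted p = 0.837), and Kif3a, Kif3c, Kif9, Kif13b, Kif26a and Dctn1 did not pass either. Dync1i1 and Dync1i2 passed as lower in that fit, at log2 fold changes of -0.55 (adjusted p = 0.0102) and -0.34 (adjusted p = 0.00485).

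**Figure D5:**
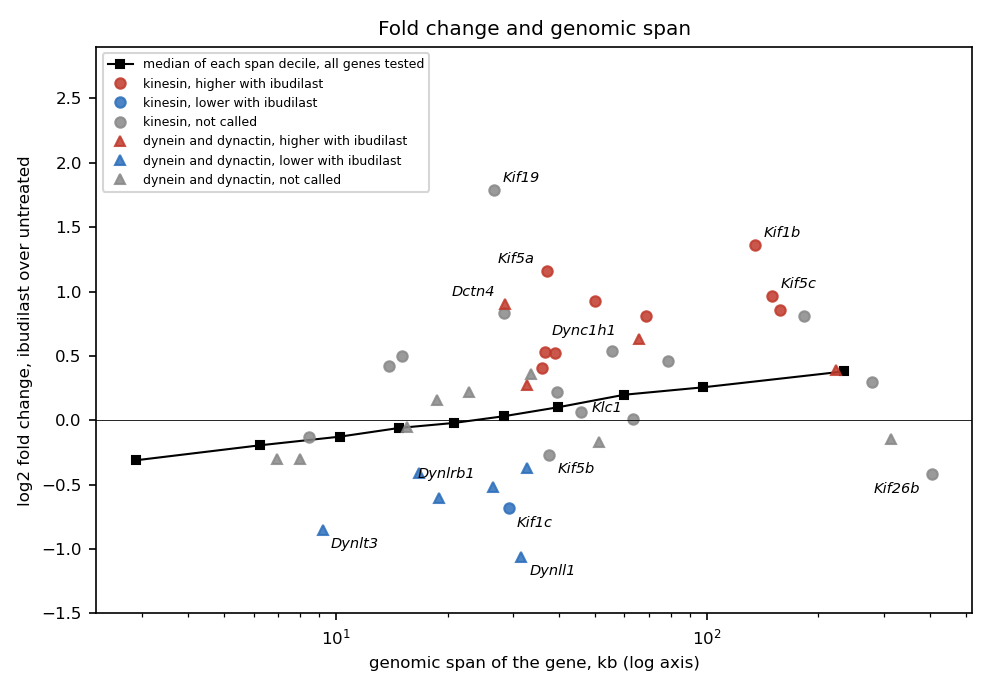
Log2 fold change, ibudilast over untreated, against genomic span in kb on a log axis for the 42 motor genes, with the median of each of 10 bins of all tested genes by span as black squares. The line of medians climbs from -0.31 to 0.38, and Kif5a, Kif1b and Kif5c lie above it while Dynll1, Dynlt3 and Kif1c lie below it.

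The calls, and some of the fold changes, moved with the marker levels given at the start. With the hippocampal neuron marker score as a covariate, edgeR called 630 genes and, of the motor genes, Kif1b alone, at a log2 fold change of 1.29 (adjusted p = 0.0403). Other log2 fold changes in that fit, none past the threshold, were 0.99 for Kif21b, 0.94 for Dctn4, 0.80 for Kif5c, 0.76 for Kif5a, 0.57 for Dync1h1, -0.52 for Dctn6, -0.80 for Dynlt3 and -0.86 for Dynll1. Their adjusted p ran from 0.0529 for Kif21b to 0.114 for Kif5a. With the neocortical score as a covariate it called 53 genes and, of the motor genes, Kif19 alone, at a log2 fold change of 4.82 (adjusted p = 0.048). Kif19 had 34.3 CPM in ibudilast 3, the ibudilast library with the lowest neocortical score, and 2.93 to 4.55 CPM in the other ibudilast libraries. In the fit with the neocortical score Dynll1 had a log2 fold change of -1.42, Dynlt3 -1.19, Dynlrb1 -0.86 and Dctn6 -0.60, while Kif1b had 0.66, Dync1h1 0.40, Kif5c 0.23 and Kif5a and Kif21b 0.04 each. None of these passed, with adjusted p from 0.131 for Dynll1 to 0.958 for Kif5a. The neocortical score did not overlap between the groups, so in these libraries treatment and the share of neocortical markers cannot be told apart. Unadjusted p was under 0.05 for 3232 genes, 18 of them motor genes, in the fit with the hippocampal score, and for 2623 genes, 14 of them motor genes, in the fit with the neocortical score.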

How the data were processed

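Hippocampal RNA was made into stranded mRNA libraries, per the labels' protocols. The estimated counts per gene (expected counts from RSEM) were made by the authors before they deposited them as 1 table for all 10 libraries. A second deposited table, made by the authors, holds the signal as TMM-scaled CPM. The submitters' processing notes name bcl2fastq 2.17, Bowtie2 2.1.0, RSEM 1.2.15, edgeR and the rn6 build, and for the annotation and the strand setting nothing is given in the sources used here. Fractional counts, which arise where a read is not assigned whole to a gene, occurred in 3 motor genes, namely Kif19 (10 libraries), Dync1li2 (4) and Dctn5 (2). The symbols Kif1a, Kif21a, Kif17 and Klc2 were not among the 51 that matched, so these genes could not be analysed here.

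Counts were rounded, filtered with filterByExpr, scaled by TMM and fitted with edgeR 4.0.16 (quasi-likelihood test) in R 4.3.3, with a Benjamini-Hochberg adjusted p under 0.05 as the threshold. The scripts were tested on simulated data. Ratios used rounded counts plus 0.5. By its title each library came from a rat of its own, and p-values measure the spread between these libraries. Total counts per library were between 6960066 and 10121571, which limits precision at the lowest genes.

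Members and lists were chosen with earlier results of these data known. Values in every library were given for the genes of the ratios and for the 6 called motor genes with the largest rise and the 6 with the largest fall, at mean levels from 1 CPM, and up to 4 adaptors in each direction were named by smallest p. Dctn1, Dync1i2, Capza1 and Pafah1b1 were added after their values were seen. Gene span and promoters came from RefSeq tables of GRCr8, with a span for 98.2% of tested genes and for all 42 motor genes, so span is approximate for counts made on rn6.

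Alternatives were RLE factors, no filter and a filter at 10 CPM, unrounded counts, DESeq2 1.42.0, limma-voom and limma-trend (limma 3.58.1, pseudocounts 0.5 and 2). Further ones were a replicate block, marker scores as covariates, a span trend removed, each library left out, and 3 libraries left out together. The last was the range of the number that ends each library title, taken as a possible animal tag.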

Additional observations from a re-analysis of the deposited data

Results flagged for a closer look

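A single library stood apart from the other 4 of its group, by Dixon's test at the 95% level, in 5 of the 84 groups of motor gene levels examined (42 genes in each group of rats), and chance flags about 1 in 20. Ibudilast 3 stood high for 3 of them. Kif13a had 175 CPM there and 32.3 to 65.1 CPM in the other ibudilast libraries, Kif19 had 34.3 CPM against 2.93 to 4.55 CPM, and Klc4 had 96.6 CPM against 36.0 to 42.8 CPM. Ibudilast 3 was also the library with 4085 CPM of summed cerebellar markers, and the part of these in the 3 values was not tested. Dync1i1, the neuronal dynein intermediate chain, had 142 CPM in untreated 2, and 218 to 233 CPM in the other untreated libraries. Kif21b had 61.9 CPM in untreated 5, and 56.2 to 57.1 CPM in the other untreated libraries.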

How the results depend on the processing

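Over 24 alternatives, 15 of the 20 motor genes called were called in all 10 fits that each left out 1 library. In those 10 fits the number of genes called ran from 3458 to 4751, kinesins called higher from 6 to 12 and lower from 0 to 1, and dynein or dynactin genes called higher from 3 to 5 and lower from 6 to 6. With the trend over gene span removed, 3959 genes passed, 4 kinesins and 2 dynein or dynactin genes were higher, and 1 kinesin and 8 dynein or dynactin genes were lower. With the neocortical score as a covariate 53 genes passed, with 1 kinesin higher, 0 lower, and 0 dynein or dynactin genes in either direction, and Kif3a (-0.26), Kif3c (-0.095) and Kif9 (-0.0046) turned negative without passing. With the hippocampal score 630 genes passed, with 1 kinesin higher, 0 lower and 0 dynein or dynactin genes in either direction. Some log2 fold changes, those of Kif21b (0.99), Dctn4 (0.94), Dync1h1 (0.57) and Dctn6 (-0.52), lay near those without the score (0.93, 0.90, 0.63 and -0.60). Others shrank, as for Kif5a (0.76 against 1.16), Dync2h1 (0.28 against 0.39) and Kif26a (0.23 against 0.41). Klc4, not called in either fit, went from 0.42 to -0.18. Without ibudilast 3, ibudilast 5 and untreated 1, 3112 genes passed, 7 kinesins were higher and 0 lower, and 2 dynein or dynactin genes were higher and 3 lower, and the differences of the log2 ratios were 1.01 for Kif5a over Klc1, 0.76 for Kif5c over Klc1, 1.42 for Dync1h1 over Dynll1 and 0.94 for Dync1h1 over Dynlrb1, each with an adjusted exact p = 0.0857. The cause of these differences between settings was not tested, and the fits that left out libraries also had fewer libraries to compare. Leaving out 1 library gave ranges of 0.98 to 1.23, 0.79 to 0.97, 1.54 to 1.93 and 1.05 to 1.28 for these 4 ratios, -0.48 to -0.21 for Kif5b over Klc1 and 0.40 to 0.66 for Kif5a over Dync1h1. Without ibudilast 3 the exact test passed for Kif5b over Klc1 (-0.48, adjusted p = 0.0381) and for Kif5a over Dync1h1 (0.61, adjusted p = 0.0476), and without untreated 2 it passed for Kif5a over Dync1h1 (0.66, adjusted p = 0.0286). Same-numbered libraries did not deviate together, with correlations from -0.13 to 0.021. The main fit used no pairing by number, and such correlations cannot exclude that the rats were paired. With the replicate block 3535 genes passed, 6 kinesins were higher and 0 lower, and 3 dynein or dynactin genes were higher and 5 lower. Depth limits the motor genes near the floor, where the mitotic kinesins lie.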
